A study of Mus musculus with 7 samples.

Results

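Cells negative for E-cadherin that were sorted from blood (BEneg) were set against cells negative for E-cadherin that were sorted from solid mammary tumours (TEneg). Members were wells of the 4 CEL-seq libraries in which both populations were sorted, chosen by their population in the barcode table and by holding at least 500 transcripts of mouse genes. This left 60 BEneg and 69 TEneg cells, 129 of the 312 wells in these libraries, of which 220 reached the minimum. Transcripts were summed per library, so each population had 4 values, paired by library.

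Both populations came from mice with the polyoma middle T (PyMT) transgene, a mouse model of breast cancer. BEneg cells were labelled circulating tumour cells and were sorted from blood as single cells negative for E-cadherin, the adhesion protein encoded by Cdh1. TEneg cells came from dissociated solid tumours and were also sorted as single cells negative for E-cadherin. Tumour cells positive for E-cadherin (TEpos), 71 wells of the same libraries, entered the fit so that all 3 populations share 1 estimate of spread. No treatment is named in the labels, and age, strain, the promoter of the transgene and the number of mice are not given in the sources used here. Each well was meant to hold 1 cell, and no doublet caller was run. BEneg had 18, 18, 11 and 13 cells in libraries 1 to 4, and TEneg had 19, 22, 14 and 14.

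Cells in blood and cells in a solid tissue draw on different parts of the same basic machinery. Actin filaments grow as branched networks through the Arp2/3 complex in crawling cells, whereas bundles of smooth muscle actin with caldesmon and calponin give contractile force in myoepithelial and perivascular cells. Phagocytes can draw glucose from glycogen, and use NADPH from the pentose phosphate pathway in an oxidase that makes superoxide. Secretory mammary epithelium makes lipid, casein and iron-binding proteins, and rests on a basement membrane of type IV collagen.

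Library sums ran from 11172 to 25379 transcripts in BEneg, 72788 in all, and from 17189 to 109892 in TEneg, 182018 in all. Genes too rare to test are given below as transcripts of these totals, so equal counts are a higher share in BEneg. Tested genes held 58.8% of BEneg transcripts and 49.0% of TEneg transcripts. Untested genes as a whole thus had a lower share in BEneg, and untested counts below are to be read beside this. The median cell had 819 transcripts of 489.5 genes in BEneg and 1603 transcripts of 970 genes in TEneg. One large cell gave 61227 transcripts, 55.7% of the TEneg sum of library 2. This cell is also included in the 182018 TEneg transcripts. Counts of untested genes in TEneg include it and are not given without it. Transcripts per spike-in molecule, from the medians over wells, were 1.03, 1.23, 1.97 and 1.96 in BEneg libraries 1 to 4 and 2.67, 2.86, 4.22 and 5.90 in TEneg. BEneg was lower in 4 of 4 libraries. The TMM scaling used for the values below sets the bulk of genes equal, so every fold change is relative to the other genes. With scaling to spike-ins the median log2 fold change of all 490 tested genes was -1.69, against -0.05 with TMM. In sums of this kind fewer cells that express a gene and fewer transcripts per cell cannot be told apart.

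Marker genes of several other cell types differed between the populations. Of the 16 measured leukocyte markers 15 had a higher share in BEneg, and the list took 1.52% to 2.76% of BEneg transcripts and 0.0666% to 0.181% of TEneg transcripts. Ptprc, the leukocyte surface phosphatase CD45, had 1 transcript in BEneg and 0 in TEneg, and Lsp1 had 0 in both. Neutrophil genes took 5.11% to 11.4% of BEneg transcripts and 1.05% to 1.84% of TEneg transcripts. Lcn2 and Ltf, which are also in the milk and luminal secretory list, gave 82.4% of the neutrophil-list transcripts in TEneg, and 3.78% in BEneg. Without this pair the list took 4.83% to 10.9% of BEneg transcripts and 0.179% to 0.463% of TEneg transcripts. Monocyte and macrophage genes took 2.47% to 4.105% of BEneg transcripts and 0.185% to 0.432% of TEneg transcripts. Other blood lists were rare and none of their genes was tested. T and NK cell genes took 0% to 0.0751% of BEneg transcripts and 0.00584% to 0.0605% of TEneg transcripts, and MHC class II genes 0.00898% to 0.169% of BEneg transcripts and 0.0117% to 0.0495% of TEneg transcripts, each higher in BEneg in 2 of 4 libraries. Platelet genes had 4 transcripts in either population, erythroid genes 2 in BEneg and 8 in TEneg, and B cell genes 6 in BEneg and 22 in TEneg. In the other direction, basal and myoepithelial genes took 0.0204% to 0.0629% of BEneg transcripts and 0.136% to 1.07% of TEneg transcripts, with Krt5, Krt17, Cnn1 and Oxtr at 0 in BEneg. Endothelial genes took 0% to 0.0591% of BEneg transcripts and 0.0992% to 0.275% of TEneg transcripts, with Kdr, Tek, Tie1 and Flt1 at 0 in BEneg, and fibroblast genes 0% to 0.0449% of BEneg transcripts and 0.0968% to 0.368% of TEneg transcripts, with Col1a1 and Lum at 0 in BEneg. Milk and luminal secretory genes took 0.547% to 1.14% of BEneg transcripts and 2.28% to 4.43% of TEneg transcripts. BEneg cells are called here by their sort, since leukocyte markers stood above and mammary markers below their TEneg levels, against the labelled tumour origin. The part of these markers in the gene groups below was not tested. Cdh1 itself, the gene of the sorted protein, had 2.04, 3.95, 5.91 and 3.59 transcripts per 10000 in BEneg libraries 1 to 4, against 5.11, 6.39, 2.202 and 2.92 in TEneg libraries 1 to 4. The groups overlapped and the gene was not called (log2 fold change -0.25, SE 0.45, edgeR adjusted p = 0.706).

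Of 490 genes tested, 201 were called at an adjusted p under 0.05 by edgeR's quasi-likelihood test, 41.0% of those tested. BEneg was higher for 117 genes (23.9%) and lower for 84 (17.1%). In 96 genes (19.6%) all 4 BEneg libraries lay above all 4 TEneg libraries, and in 72 genes (14.7%) all 4 lay below. Of the called genes 186 moved the same way in 4 of 4 libraries and 15 in 3 of 4. With spike-in scaling 51 genes (10.4%) were called higher in BEneg and 371 (75.7%) lower. Of the genes called higher with TMM, 45 turned to a negative log2 fold change, counted by sign whether or not they were called there. The shift between the scalings was nearly the same for every gene (mean -1.66, SD 0.0618 over the 490 genes), so the size of the TMM fold change decides which genes turn. The 45 had TMM log2 fold changes of up to 1.63, and the 51 had at least 2.48. The 57 gene lists hold 351 of the tested genes and 151 of the called ones. Counts of called members below are to be read beside the 23.9% higher and 17.1% lower of all tested genes. Many lists have few tested members, and no list was tested as a set.

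**Figure D1:**
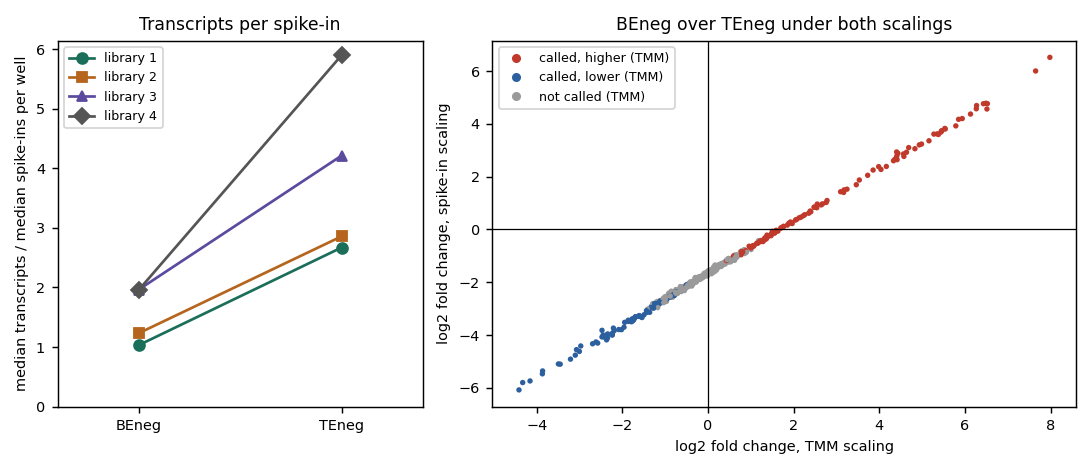
The left panel plots median transcripts over median spike-in molecules per well for BEneg and TEneg, with a line for each of the 4 libraries, and BEneg is lower in each. The right panel plots each of the 490 tested genes by its log2 fold change with TMM scaling (x axis) and with spike-in scaling (y axis), where the median is -1.69.

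Metabolic genes did not move as 1 block. The lists of eicosanoid synthesis (2 tested of 15 measured) and NADPH oxidase (3 tested of 6) had every tested member higher in BEneg. The list of lipid and cholesterol synthesis had both tested members lower, and oxidative phosphorylation was called in 3 of 37 tested members. Single enzymes of glycogen, pentose phosphate and malate metabolism were called in opposite directions.

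Pygl, glycogen phosphorylase of the liver type, releases glucose units from glycogen. The gene had 4.898, 5.93, 4.22 and 7.19 transcripts per 10000 in BEneg libraries 1 to 4, against 0, 0, 0 and 0 in TEneg libraries 1 to 4. No TEneg library held a transcript, and the 40 BEneg transcripts came from 26 wells. Against a floor of 3 counts over the group Pygl was at least 33.3-fold higher in BEneg (edgeR adjusted p = 6.09e-06). Of the other 3 tested members of the glycolysis and glycogen list, Aldoc was lower and Gapdh and Tpi1 were not called. Aldoc, an aldolase, had 0.816, 1.58, 1.69 and 1.796 transcripts per 10000 in BEneg libraries 1 to 4, against 3.23, 10.2, 6.05 and 0.584 in TEneg libraries 1 to 4. It was lower in BEneg libraries 1 to 3 and higher in library 4 (log2 fold change -1.77, SE 0.50, edgeR adjusted p = 0.00479), and the Aldoc call was lost without library 2. Gapdh, glyceraldehyde 3-phosphate dehydrogenase, had 14.3, 17.8, 15.2 and 10.8 transcripts per 10000 in BEneg libraries 1 to 4, against 14.3, 12.9, 18.2 and 16.9 in TEneg libraries 1 to 4, and its groups overlapped (log2 fold change 0.19, SE 0.21, edgeR adjusted p = 0.515). Among members too rare to test, the glucose transporter gene Slc2a3 had 20 in BEneg and 3 in TEneg, the hexokinase gene Hk2 8 in BEneg and 3 in TEneg, the phosphofructokinase gene Pfkl 5 in BEneg and 38 in TEneg and the lactate dehydrogenase subunit gene Ldhb 1 in BEneg and 40 in TEneg.

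Taldo1, transaldolase of the pentose phosphate pathway, had 15.5, 13.8, 13.5 and 8.08 transcripts per 10000 in BEneg libraries 1 to 4, against 3.498, 4.11, 3.85 and 4.08 in TEneg libraries 1 to 4. All BEneg libraries lay above all TEneg libraries (log2 fold change 1.95, SE 0.30, edgeR adjusted p = 4.77e-06), and with spike-in scaling it was at 0.25 and not called. The 6 untested members of the pathway had 81 transcripts in BEneg and 103 in TEneg, including G6pdx, the entry enzyme, with 22 in BEneg and 10 in TEneg. The summed list took 0.162% to 0.304% of BEneg transcripts and 0.0817% to 0.102% of TEneg transcripts.

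In the citric acid cycle and its shuttles 1 of 2 tested members was called. Mdh1, the cytosolic malate dehydrogenase, had 0, 1.58, 1.69 and 0 transcripts per 10000 in BEneg libraries 1 to 4, against 5.38, 4.02, 4.404 and 4.67 in TEneg libraries 1 to 4. BEneg libraries 1 and 4 held no transcript, and all BEneg libraries lay below all TEneg libraries (log2 fold change -2.23, SE 0.60, edgeR adjusted p = 0.00363). The mitochondrial enzyme gene Mdh2 was not called, with a log2 fold change of -0.28. The 24 untested members had 117 transcripts in BEneg and 524 in TEneg, with a lower share in BEneg in 4 of 4 libraries. In the fit without the filter on low counts the list's median log2 fold change was -0.89, against -0.71 for all genes.

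Of 37 tested oxidative phosphorylation genes, 1 was higher, 2 were lower and 34 were not called. The median log2 fold change was -0.15, against -0.05 for all tested genes. Other settings gave other counts, with 11 lower of 37 by limma on well means and 36 lower with spike-in scaling, and none higher in either. Of all 490 tested genes 218 were lower by limma and 371 with spike-in scaling. The whole list took a lower share of BEneg transcripts in 4 of 4 libraries, 1.68% to 2.27% of BEneg transcripts and 1.797% to 2.699% of TEneg transcripts. The 41 untested members had 299 transcripts in BEneg and 1202 in TEneg, also a lower share in 4 of 4 libraries. In the fit without the filter on low counts the list's median log2 fold change was -0.47, against -0.71 for all genes. The 3 called genes all encode parts of ATP synthase. Atp5o had 0.816, 1.58, 2.53 and 0.898 transcripts per 10000 in BEneg libraries 1 to 4, against 5.65, 4.199, 7.71 and 4.67 in TEneg libraries 1 to 4, lower in all BEneg libraries than in any TEneg library (log2 fold change -1.72, SE 0.46, edgeR adjusted p = 0.00333). Atp5b, the catalytic beta subunit, had 1.63, 5.14, 8.45 and 1.796 transcripts per 10000 in BEneg libraries 1 to 4, against 10.8, 8.67, 8.26 and 7.003 in TEneg libraries 1 to 4. It was lower in 3 of 4 libraries, with overlapping groups (log2 fold change -0.96, SE 0.35, edgeR adjusted p = 0.0292), and the Atp5b call was lost without library 1, 2 or 4, with DESeq2, with wells of at least 1000 transcripts, without the filter on low counts or with wells of 500 to 2000 transcripts. Atp5l had 8.16, 6.32, 9.29 and 4.49 transcripts per 10000 in BEneg libraries 1 to 4, against 5.11, 5.203, 6.05 and 2.33 in TEneg libraries 1 to 4. It was higher in every BEneg library than in TEneg of the same library, with overlapping groups (log2 fold change 0.76, SE 0.29, edgeR adjusted p = 0.0405), but the Atp5l call was lost without library 1, 2, 3 or 4, when BEneg and TEneg alone were fitted, with DESeq2, with wells of at least 1000 transcripts, with limma on well means, without the filter on low counts, without the library block, with scaling to total transcripts or without the large TEneg cell. With spike-in scaling Atp5l turned to -0.87.

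Both tested genes of lipid and cholesterol synthesis fell. Srebf1, the transcription factor SREBP1 that drives fatty acid synthesis genes, had 0, 0, 0.845 and 0.898 transcripts per 10000 in BEneg libraries 1 to 4, against 2.96, 7.76, 3.85 and 4.67 in TEneg libraries 1 to 4. BEneg libraries 1 and 2 were at 0 and all lay below TEneg (log2 fold change -3.86, SE 0.75, edgeR adjusted p = 0.00011). Scd2, a stearoyl-CoA desaturase, had 0.408, 0.395, 0.845 and 1.796 transcripts per 10000 in BEneg libraries 1 to 4, against 2.96, 6.48, 2.202 and 11.1 in TEneg libraries 1 to 4, again without overlap (log2 fold change -2.70, SE 0.54, edgeR adjusted p = 0.000176). Among untested members, the desaturase gene Scd1 had 6 in BEneg and 41 in TEneg, and the desaturase gene Fads1 had 3 in BEneg and 27 in TEneg. The 32 untested members had 70 transcripts in BEneg and 265 in TEneg. In the fit without the filter on low counts the list's median log2 fold change was -0.93, against -0.71 for all genes. Dbi, an acyl-CoA binding protein, had 0.408, 1.19, 2.53 and 0.898 transcripts per 10000 in BEneg libraries 1 to 4, against 3.77, 3.74, 3.303 and 5.25 in TEneg libraries 1 to 4. It was lower without overlap (log2 fold change -1.61, SE 0.52, edgeR adjusted p = 0.0143), and the Dbi call was lost without library 1, 2 or 4, with wells of at least 1000 transcripts or without the large TEneg cell. Apoe, an apolipoprotein, was not called at -0.62, but was called lower without library 2 (-1.05), without the large TEneg cell, when BEneg and TEneg alone were fitted and with limma on well means (-0.86 in each).

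Genes of eicosanoid and platelet activating factor metabolism went the other way. Alox5ap, the protein that presents arachidonic acid to 5-lipoxygenase, had 25.3, 13.4, 9.29 and 27.8 transcripts per 10000 in BEneg libraries 1 to 4, against 0.269, 0.183, 0.5504 and 0 in TEneg libraries 1 to 4. The lowest BEneg library stood far above the highest TEneg library (log2 fold change 6.27, SE 0.50, edgeR adjusted p = 6.6e-11). Pla2g7, the hydrolase that inactivates platelet activating factor, had 8.57, 4.74, 4.22 and 14.4 transcripts per 10000 in BEneg libraries 1 to 4, against 2.42, 0.7303, 0.5504 and 2.92 in TEneg libraries 1 to 4, without overlap (log2 fold change 2.48, SE 0.46, edgeR adjusted p = 6.98e-05). With spike-in scaling Pla2g7 was at 0.84 and not called. Lta4h and Ptges3, which act downstream of arachidonic acid, were not tested. Lta4h had 4 in BEneg and 24 in TEneg transcripts, and Ptges3 had 10 in BEneg and 58 in TEneg.

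The 3 tested members of the NADPH oxidase list rose, and each stayed called with spike-in scaling. Cybb and Cyba encode the membrane subunits of the phagocyte oxidase. Cybb had 11.4, 6.32, 9.29 and 4.49 transcripts per 10000 in BEneg libraries 1 to 4, against 0.269, 0.0913, 2.202 and 1.17 in TEneg libraries 1 to 4, without overlap (log2 fold change 3.99, SE 0.64, edgeR adjusted p = 9.07e-06). Cyba had 11.8, 6.32, 6.76 and 9.88 transcripts per 10000 in BEneg libraries 1 to 4, against 0.538, 0.822, 1.101 and 0 in TEneg libraries 1 to 4, also without overlap (log2 fold change 3.73, SE 0.60, edgeR adjusted p = 9.64e-06). The small GTPase gene Rac2, which activates the oxidase, is described with the cytoskeleton.

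Of 9 tested redox and glutathione genes, 4 rose, 1 fell and 4 were not called, against 23.9% higher and 17.1% lower over all tested genes. Gpx1, glutathione peroxidase, had 37.1, 20.5, 30.4 and 44.01 transcripts per 10000 in BEneg libraries 1 to 4, against 7.53, 8.398, 12.1 and 11.7 in TEneg libraries 1 to 4, without overlap (log2 fold change 1.93, SE 0.22, edgeR adjusted p = 3.49e-08). Msrb1, a methionine sulfoxide reductase, had 15.5, 16.6, 15.2 and 12.6 transcripts per 10000 in BEneg libraries 1 to 4, against 2.42, 3.38, 1.65 and 2.92 in TEneg libraries 1 to 4, without overlap (log2 fold change 2.67, SE 0.29, edgeR adjusted p = 2.1e-08). Prdx5, a peroxiredoxin, had 5.31, 7.9, 7.603 and 8.98 transcripts per 10000 in BEneg libraries 1 to 4, against 1.08, 2.74, 1.65 and 1.17 in TEneg libraries 1 to 4 (log2 fold change 2.17, SE 0.41, edgeR adjusted p = 8.9e-05). Thioredoxin (Txn1) had 16.7, 16.2, 16.1 and 11.7 transcripts per 10000 in BEneg libraries 1 to 4, against 10.2, 7.76, 14.9 and 9.34 in TEneg libraries 1 to 4. It was higher with overlapping groups (log2 fold change 0.81, SE 0.23, edgeR adjusted p = 0.00527), and the Txn1 call was lost without library 1 or 2, when BEneg and TEneg alone were fitted, with wells of at least 1000 transcripts, with limma on well means or without the filter on low counts. Prdx2, another peroxiredoxin, had 2.04, 1.19, 2.53 and 1.796 transcripts per 10000 in BEneg libraries 1 to 4, against 4.04, 4.47, 6.05 and 4.08 in TEneg libraries 1 to 4 and was lower (log2 fold change -1.13, SE 0.42, edgeR adjusted p = 0.0329), but the Prdx2 call was lost without library 2, 3 or 4, with DESeq2, with wells of at least 1000 transcripts, without the filter on low counts or without the large TEneg cell. Not called were Prdx1, Prdx6, Sod1 and Mgst1, from -0.23 to 0.66. Mgst1 was called higher without library 3, at 0.84, without the large TEneg cell and with wells of at least 1000 transcripts. Untested Nqo1, a quinone reductase, had 0 in BEneg and 27 in TEneg, and Prdx4, the peroxiredoxin of the endoplasmic reticulum, 1 in BEneg and 27 in TEneg. With spike-in scaling Msrb1 kept its call at 0.97, Gpx1 and Prdx5 lost theirs at 0.28 and 0.47, and Txn1 turned to -0.85.

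**Figure D2:**
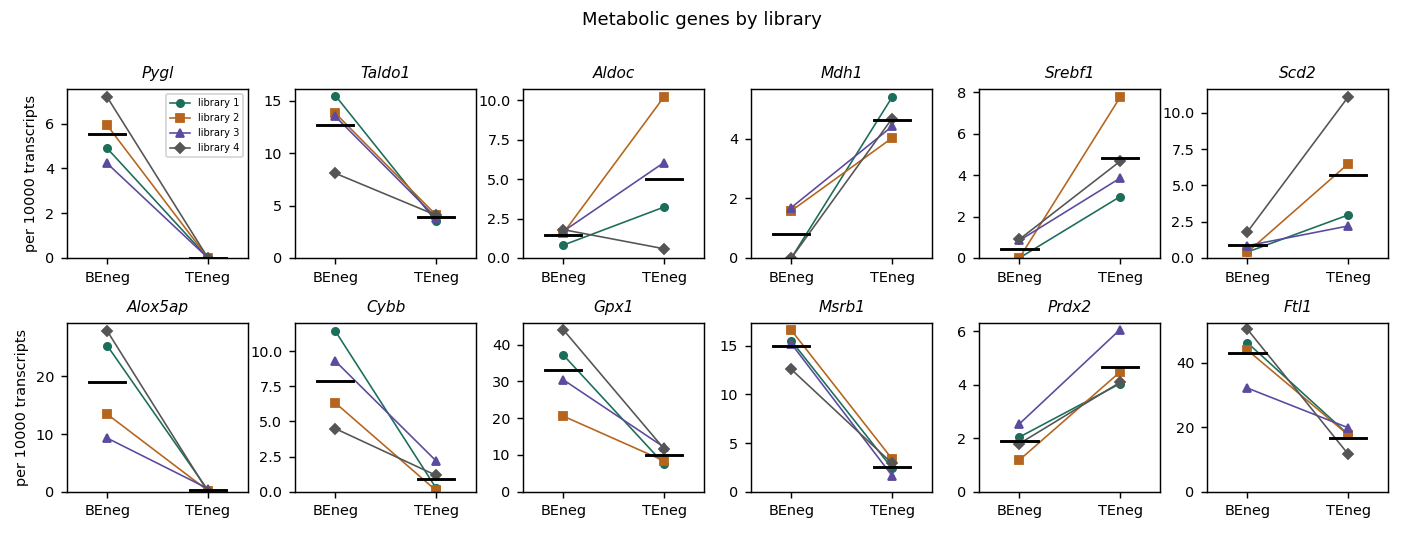
Transcripts per 10000 of 12 metabolic genes (y axes, each from 0) in BEneg and TEneg, with a line for each of the 4 libraries and a black bar at the mean. Pygl, Taldo1, Alox5ap, Cybb, Gpx1, Msrb1 and Ftl1 lie higher in every BEneg library, and Mdh1, Srebf1, Scd2 and Prdx2 lie lower in every BEneg library, while Aldoc crosses in library 4.

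Iron handling split by protein. Ftl1, the ferritin light chain, had 46.1, 43.8, 32.1 and 50.3 transcripts per 10000 in BEneg libraries 1 to 4, against 17.8, 17.6, 19.8 and 11.7 in TEneg libraries 1 to 4, without overlap (log2 fold change 1.54, SE 0.18, edgeR adjusted p = 8.65e-08). With spike-in scaling it was at -0.11. Fth1, the other ferritin chain gene measured, was too rare to test, with 5 transcripts in BEneg and 20 in TEneg. The iron-binding secreted proteins Lcn2, Ltf and Trf were lower, at -1.19, -1.76 and -1.79. The Ltf call was lost without library 2. With DESeq2, with limma on well means or without the large TEneg cell only 1 of Lcn2 and Ltf was called lower. Untested Slc40a1, the iron exporter ferroportin, had 24 in BEneg and 1 in TEneg, and haptoglobin (Hp) 81 in BEneg and 15 in TEneg. Lcn2 and Ltf are made by neutrophils as well as by mammary epithelium, and stand in both marker lists.

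Sat1, which acetylates polyamines, had 14.3, 12.2, 10.98 and 10.8 transcripts per 10000 in BEneg libraries 1 to 4, against 3.23, 2.28, 5.504 and 2.92 in TEneg libraries 1 to 4, without overlap (log2 fold change 2.13, SE 0.34, edgeR adjusted p = 7.37e-06), and was at 0.44 and not called with spike-in scaling. Its list partner Oaz1, the ornithine decarboxylase antizyme, was not called at -0.55. In ion and solute transport 2 genes rose, 2 fell and 3 were not called, against 23.9% higher and 17.1% lower over all tested genes. Fxyd3, a regulator of the sodium pump, had 0, 1.58, 2.53 and 0.898 transcripts per 10000 in BEneg libraries 1 to 4, against 6.73, 8.12, 7.16 and 4.67 in TEneg libraries 1 to 4, all BEneg libraries below TEneg (log2 fold change -2.42, SE 0.47, edgeR adjusted p = 0.000126). Atp6v1g1, a subunit of the proton pump of lysosomes, was higher at 1.42, and the Atp6v1g1 call was lost with wells of at least 1000 transcripts or without the filter on low counts. Clic1, a chloride channel protein, was higher at 1.20, and the Clic1 call was lost without library 1 or 2, with wells of at least 1000 transcripts, with limma on well means or without the filter on low counts. With spike-in scaling these last genes turned to -0.25 and -0.43.

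**Figure D3:**
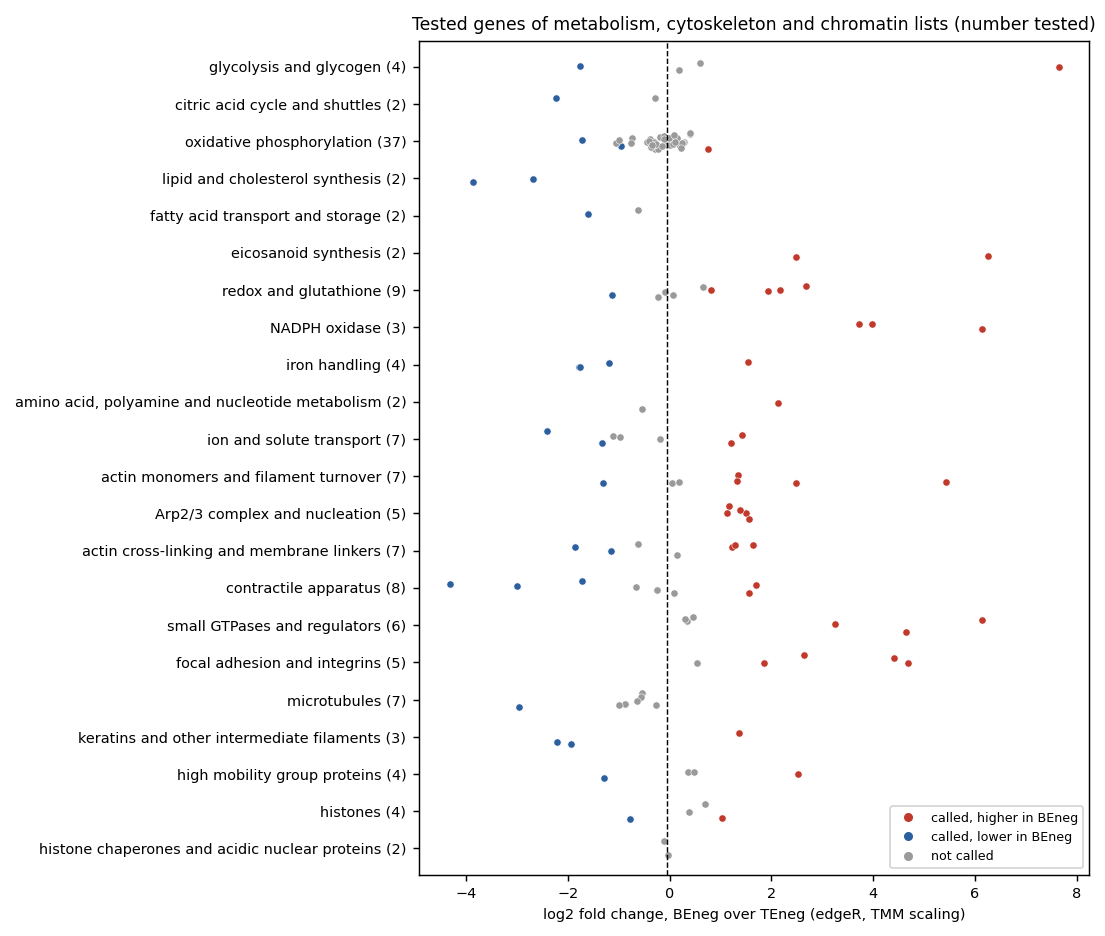
Each point is a tested gene, placed by its log2 fold change of BEneg over TEneg (x axis) in its metabolism, cytoskeleton or chromatin list (rows, number tested in brackets), with called genes in red (higher in BEneg) or blue (lower) and others in grey. The dashed line is the median of all tested genes, -0.05. The 5 Arp2/3 genes lie from 1.13 to 1.56, and 34 of 37 oxidative phosphorylation genes are grey.

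In the actin cytoskeleton, thymosin beta 4, beta actin, the tested Arp2/3 subunits and several leukocyte actin regulators were higher in BEneg relative to other genes, smooth muscle actin, caldesmon and Cnn3 were lower, and gamma actin and Rac1 were not called. Of 7 tested genes of actin monomers and filament turnover 4 rose, 1 fell and 2 were not called. Over all tested genes 23.9% were higher and 17.1% lower.

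Tmsb4x, thymosin beta 4, which binds actin monomers, had 248, 181, 133 and 188 transcripts per 10000 in BEneg libraries 1 to 4, against 48.7, 31.04, 46.8 and 28.6 in TEneg libraries 1 to 4. The groups were far apart (log2 fold change 2.48, SE 0.22, edgeR adjusted p = 5.75e-10), and the gene stayed called with spike-in scaling at 0.85. Actb, beta actin, had 116, 105, 73.5 and 108 transcripts per 10000 in BEneg libraries 1 to 4, against 52.5, 40.7, 44.6 and 45.5 in TEneg libraries 1 to 4, without overlap (log2 fold change 1.33, SE 0.19, edgeR adjusted p = 1.94e-06). Gamma actin (Actg1), which differs from beta actin by few residues, had 52.2, 42.7, 35.5 and 30.5 transcripts per 10000 in BEneg libraries 1 to 4, against 41.4, 43.1, 49.5 and 47.9 in TEneg libraries 1 to 4. Its groups overlapped (log2 fold change 0.05, SE 0.19, edgeR adjusted p = 0.877). With spike-in scaling Actb was at -0.31 and not called, and Actg1 at -1.63. Pfn1, profilin, which loads actin with ATP, had 8.98, 10.7, 18.6 and 15.3 transcripts per 10000 in BEneg libraries 1 to 4, against 4.57, 3.93, 6.61 and 9.92 in TEneg libraries 1 to 4 (log2 fold change 1.32, SE 0.29, edgeR adjusted p = 0.000467), and the Pfn1 call was lost with wells of at least 1000 transcripts. It was at -0.35 with spike-in scaling.

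Coro1a, a coronin of blood cells that binds actin filaments, had 13.5, 13.4, 5.07 and 13.5 transcripts per 10000 in BEneg libraries 1 to 4, against 0.538, 0.183, 0.5504 and 0 in TEneg libraries 1 to 4. BEneg library 3 was lowest in BEneg and still above every TEneg library (log2 fold change 5.44, SE 0.62, edgeR adjusted p = 4.28e-08). The untested coronin genes Coro1b and Coro1c had 30 in BEneg and 28 in TEneg for Coro1b, and 15 in BEneg and 13 in TEneg for Coro1c. Dstn, destrin, which severs filaments, had 4.49, 2.37, 5.07 and 3.59 transcripts per 10000 in BEneg libraries 1 to 4, against 12.4, 8.12, 4.95 and 19.8 in TEneg libraries 1 to 4. It was lower in 3 of 4 libraries (log2 fold change -1.31, SE 0.35, edgeR adjusted p = 0.00333), and the Dstn call was lost without library 4 or with wells of 500 to 2000 transcripts. The related cofilin gene Cfl1 was not called at 0.18.

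All 5 tested genes of the Arp2/3 list rose, namely Arpc2, Arpc1b, Arpc5, Arpc3 and Actr2, from 1.13 to 1.56. Each encodes a subunit of the complex that starts branches on existing filaments. Arpc2 had 22.04, 10.7, 7.603 and 17.96 transcripts per 10000 in BEneg libraries 1 to 4, against 6.73, 4.11, 6.61 and 5.25 in TEneg libraries 1 to 4, without overlap (log2 fold change 1.56, SE 0.28, edgeR adjusted p = 5.31e-05). Arpc1b, the subunit isoform that prevails in blood cells, had 17.96, 15.01, 10.98 and 12.6 transcripts per 10000 in BEneg libraries 1 to 4, against 6.73, 5.29, 8.26 and 3.501 in TEneg libraries 1 to 4, without overlap (log2 fold change 1.49, SE 0.28, edgeR adjusted p = 6.17e-05). Its paralog Arpc1a was not tested, with 26 in BEneg and 36 in TEneg transcripts, or 3.57 per 10000 of all BEneg transcripts and 1.98 per 10000 of all TEneg transcripts. The list took 0.691% to 0.935% of BEneg transcripts and 0.299% to 0.396% of TEneg transcripts. The Arpc5 call was lost with wells of at least 1000 transcripts, the Actr2 call was lost without the filter on low counts or with wells of 500 to 2000 transcripts and the Arpc3 call was lost without library 1, with limma on well means or without the filter on low counts. With spike-in scaling all 5 turned to between -0.53 and -0.13 and none was called, so their rise is one relative to other genes. Untested Hcls1, a cortactin relative of blood cells, had 22 in BEneg and 2 in TEneg, and Wasl, the widely expressed activator N-WASP, 3 in BEneg and 21 in TEneg.

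Among 6 tested small GTPases of the cytoskeleton and their regulators 3 rose and 3 were not called. Rac2, the Rac GTPase of blood cells, had 22.4, 22.1, 13.5 and 20.7 transcripts per 10000 in BEneg libraries 1 to 4, against 0.538, 0.0913, 0.5504 and 0.584 in TEneg libraries 1 to 4. The TEneg libraries were all under 1 (log2 fold change 6.13, SE 0.50, edgeR adjusted p = 1e-10). Rac1, its widely expressed paralog, had 6.53, 7.51, 4.22 and 16.2 transcripts per 10000 in BEneg libraries 1 to 4, against 6.19, 5.203, 9.91 and 10.5 in TEneg libraries 1 to 4, with overlap (log2 fold change 0.34, SE 0.30, edgeR adjusted p = 0.401). Arhgdib, an inhibitor of GDP release from small GTPases in blood cells, had 15.1, 8.69, 10.1 and 17.1 transcripts per 10000 in BEneg libraries 1 to 4, against 0.269, 0.548, 0 and 1.17 in TEneg libraries 1 to 4, without overlap (log2 fold change 4.64, SE 0.50, edgeR adjusted p = 1.88e-08), whereas its paralog Arhgdia had 12 in BEneg and 52 in TEneg transcripts and was not tested. Rhog, a GTPase upstream of Rac, had 9.39, 8.69, 8.45 and 7.19 transcripts per 10000 in BEneg libraries 1 to 4, against 1.35, 0.639, 1.65 and 1.17 in TEneg libraries 1 to 4, without overlap (log2 fold change 3.25, SE 0.50, edgeR adjusted p = 5.72e-06). Cdc42 and Rhoa were not called, at 0.47 and 0.30, though Cdc42 was called higher without library 3, at 0.91. The 3 genes that rose stayed called with spike-in scaling, at 4.38, 2.93 and 1.53. Rac2, Coro1a and Arhgdib are also members of the leukocyte list.

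The contractile list had 2 genes higher, 3 lower and 3 not called of 8 tested, against 23.9% higher and 17.1% lower over all tested genes. Acta2, smooth muscle actin, had 0.408, 0.395, 0.845 and 2.69 transcripts per 10000 in BEneg libraries 1 to 4, against 34.7, 4.47, 10.5 and 49.02 in TEneg libraries 1 to 4. TEneg spread widely between libraries, and all BEneg libraries lay below (log2 fold change -4.33, SE 0.57, edgeR adjusted p = 4.89e-07). Cald1, caldesmon, had 0.408, 1.19, 0 and 0 transcripts per 10000 in BEneg libraries 1 to 4, against 6.73, 3.83, 3.85 and 7.59 in TEneg libraries 1 to 4, and Cnn3, a calponin, had 0.408, 1.58, 3.38 and 0 transcripts per 10000 in BEneg libraries 1 to 4, against 4.57, 3.65, 5.504 and 6.42 in TEneg libraries 1 to 4. Both lay below TEneg in all 4 libraries (log2 fold change -3.004, SE 0.64, edgeR adjusted p = 0.000319 for Cald1, log2 fold change -1.72, SE 0.53, edgeR adjusted p = 0.00938 for Cnn3), and the Cnn3 call was lost without library 1 or 4. Untested members with the most transcripts were the transgelin gene Tagln with 3 in BEneg and 112 in TEneg, the myosin light chain kinase gene Mylk with 7 in BEneg and 91 in TEneg, the regulatory light chain gene Myl9 with 4 in BEneg and 69 in TEneg and the tropomyosin gene Tpm2 with 3 in BEneg and 59 in TEneg. Acta2, Mylk, Cnn1 and Tagln are also members of the basal and myoepithelial list, whose shares are given above, and the part of that list in this difference was not tested.

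In the same list Myl12b and Tagln2 went the other way. Myl12b, a nonmuscle regulatory light chain, had 11.02, 9.88, 8.45 and 7.19 transcripts per 10000 in BEneg libraries 1 to 4, against 3.23, 4.38, 3.303 and 2.92 in TEneg libraries 1 to 4, without overlap (log2 fold change 1.56, SE 0.31, edgeR adjusted p = 0.000147). Its near-identical paralog Myl12a had 3.27, 6.32, 8.45 and 8.08 transcripts per 10000 in BEneg libraries 1 to 4, against 10.2, 10.6, 9.36 and 13.4 in TEneg libraries 1 to 4. Every Myl12a value was lower in BEneg, but the gene was not called (log2 fold change -0.66, SE 0.30, edgeR adjusted p = 0.0895). It was called lower when BEneg and TEneg alone were fitted, with limma on well means and with scaling to total transcripts, from -1.18 to -0.84. Because reads of such close copies may be split between them, the pair is uncertain. Tagln2, a transgelin of nonmuscle cells, had 6.12, 8.69, 9.29 and 9.88 transcripts per 10000 in BEneg libraries 1 to 4, against 4.305, 2.37, 2.202 and 2.33 in TEneg libraries 1 to 4, without overlap (log2 fold change 1.70, SE 0.36, edgeR adjusted p = 0.000342). Nonmuscle myosin heavy chain (Myh9) and the light chain Myl6 were not called, at 0.08 and -0.24. With spike-in scaling Myl12b turned to -0.13 and Tagln2 was at 0.05.

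**Figure D4:**
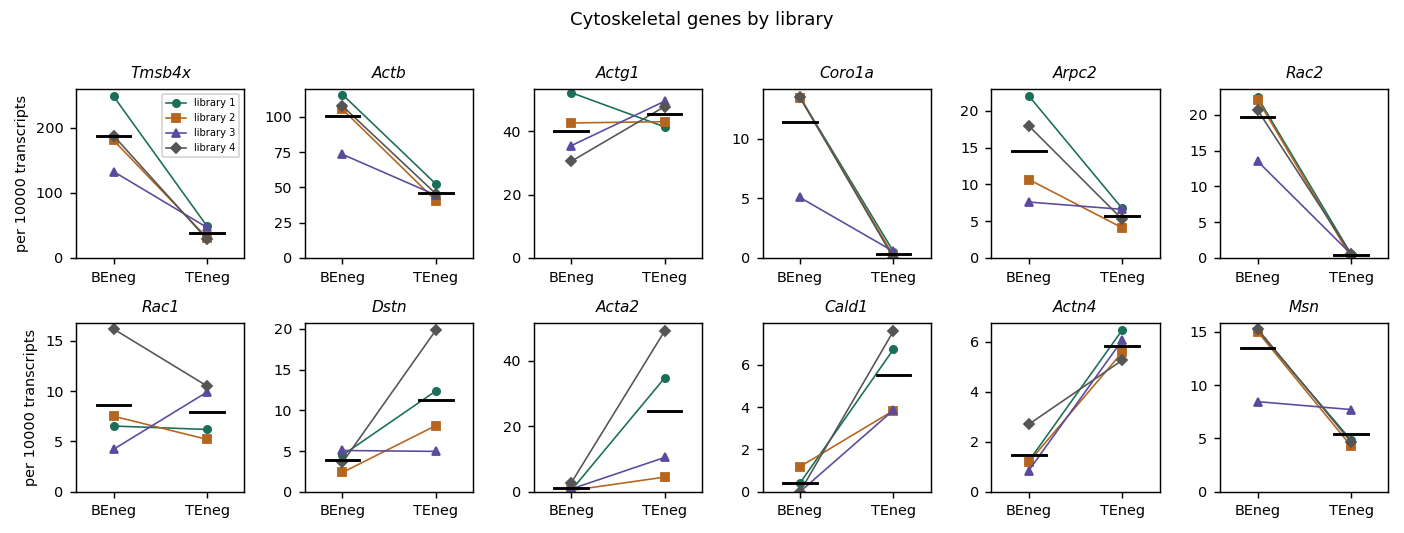
Transcripts per 10000 of 12 cytoskeletal genes (y axes, each from 0) in BEneg and TEneg, with a line for each of the 4 libraries and a black bar at the mean. Tmsb4x, Actb, Coro1a, Arpc2, Rac2 and Msn lie higher in every BEneg library, Acta2, Cald1 and Actn4 lie lower, and the lines of Actg1 and Rac1 cross.

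Links between actin and the membrane also split. Msn, moesin, had 15.1, 15.01, 8.45 and 15.3 transcripts per 10000 in BEneg libraries 1 to 4, against 4.84, 4.29, 7.71 and 4.67 in TEneg libraries 1 to 4, without overlap (log2 fold change 1.63, SE 0.32, edgeR adjusted p = 0.000125). Ezr, ezrin, its paralog, had 3.27, 4.35, 3.38 and 0.898 transcripts per 10000 in BEneg libraries 1 to 4, against 5.65, 5.48, 6.05 and 5.84 in TEneg libraries 1 to 4. All BEneg values were lower, but Ezr was not called (log2 fold change -0.63, SE 0.37, edgeR adjusted p = 0.184), except with limma on well means or spike-in scaling. Iqgap1, a scaffold, and Marcks, a membrane substrate of protein kinase C, rose by 1.29 and 1.22, while the Marcks paralog Marcksl1 was lower at -1.16. The Iqgap1 call was lost with wells of at least 1000 transcripts or without the filter on low counts, the Marcks call was lost with wells of at least 1000 transcripts, with limma on well means or without the filter on low counts and the Marcksl1 call was lost without library 1 or 3, with DESeq2, without the filter on low counts or without the library block. Actn4, an alpha-actinin that cross-links filaments, had 1.22, 1.19, 0.845 and 2.69 transcripts per 10000 in BEneg libraries 1 to 4, against 6.46, 5.57, 6.05 and 5.25 in TEneg libraries 1 to 4, all below TEneg (log2 fold change -1.86, SE 0.46, edgeR adjusted p = 0.00169). Flna, filamin, was not called at 0.14, and untested cross-linker genes with the most transcripts were Csrp1 with 7 in BEneg and 83 in TEneg, Actn1 with 22 in BEneg and 71 in TEneg and Sptbn1 with 6 in BEneg and 71 in TEneg. With spike-in scaling Msn, Iqgap1 and Marcks turned to -0.06, -0.40 and -0.45.

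Of 5 tested genes of adhesion to matrix and vessel wall, 4 rose and Cd9 was not called at 0.53. Selplg, the ligand by which leukocytes roll on selectins, had 17.6, 16.6, 10.1 and 13.5 transcripts per 10000 in BEneg libraries 1 to 4, against 0.807, 0.183, 1.65 and 2.33 in TEneg libraries 1 to 4, without overlap (log2 fold change 4.42, SE 0.48, edgeR adjusted p = 2e-08). Itgb2, the integrin chain of leukocytes, rose by 4.69 (SE 0.75). Zyx, zyxin, a protein of focal adhesions, had 8.98, 7.11, 9.29 and 8.08 transcripts per 10000 in BEneg libraries 1 to 4, against 0.807, 1.73, 1.101 and 1.75 in TEneg libraries 1 to 4, without overlap (log2 fold change 2.64, SE 0.47, edgeR adjusted p = 3.47e-05). Cd47, a surface protein that inhibits phagocytosis, rose by 1.85 (SE 0.51). Untested integrin chains of adhesion to matrix had 11 in BEneg and 83 in TEneg for Itgb1 and 1 in BEneg and 27 in TEneg for Itga6, and Itga4, a chain of leukocytes, had 26 in BEneg and 6 in TEneg. With spike-in scaling Zyx and Cd47 were at 0.93 and 0.17 and not called.

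Of 7 tested microtubule genes 1 was called. Stmn1, stathmin, which takes tubulin apart, had 0, 0.395, 0.845 and 0 transcripts per 10000 in BEneg libraries 1 to 4, against 2.42, 1.37, 3.85 and 5.84 in TEneg libraries 1 to 4, all below TEneg (log2 fold change -2.97, SE 0.87, edgeR adjusted p = 0.00638). The other 6 ran from -0.996 to -0.27. In the intermediate filaments, the keratin pair of simple epithelia fell. Krt18 had 0.816, 0.79, 1.69 and 1.796 transcripts per 10000 in BEneg libraries 1 to 4, against 5.92, 6.12, 7.71 and 2.33 in TEneg libraries 1 to 4, without overlap (log2 fold change -2.21, SE 0.48, edgeR adjusted p = 0.000427), and Krt8 was lower at -1.95 (SE 0.44). The Krt18 call was lost with wells of 500 to 2000 transcripts. Vim, vimentin, was higher at 1.37 (SE 0.26, edgeR adjusted p = 9.33e-05), though the Vim call was lost with limma on well means, and with spike-in scaling it turned to -0.32.

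Nuclear genes held differences between paralogs, and many were too rare to test. No gene of the 40 measured chromatin modifiers and remodellers passed the filter on low counts. Their transcripts summed to 198 in BEneg and 668 in TEneg, or 0.208% to 0.389% of BEneg transcripts and 0.319% to 0.385% of TEneg transcripts. The deepest of them were Chd4 with 9 in BEneg and 48 in TEneg and Arid1a with 21 in BEneg and 47 in TEneg, or 2.89 per 10000 of all BEneg transcripts and 2.58 per 10000 of all TEneg transcripts. Without the filter on low counts 39 of them were tested by edgeR and none was called, with a median log2 fold change of -0.64, against -0.71 for all genes in that fit.

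H3f3a and H3f3b both encode histone H3.3, the replacement histone deposited outside replication, and they moved in opposite directions. H3f3a had 38.4, 27.3, 16.1 and 47.6 transcripts per 10000 in BEneg libraries 1 to 4, against 19.6, 15.97, 15.96 and 19.3 in TEneg libraries 1 to 4. BEneg was higher in every library, by little in library 3 (log2 fold change 1.03, SE 0.18, edgeR adjusted p = 3.85e-05). H3f3b had 14.3, 21.7, 10.98 and 8.98 transcripts per 10000 in BEneg libraries 1 to 4, against 18.6, 49.7, 24.2 and 22.8 in TEneg libraries 1 to 4. BEneg was lower in every library, although BEneg library 2 lay above TEneg library 1 (log2 fold change -0.78, SE 0.23, edgeR adjusted p = 0.00707). The H3f3a call was lost with limma on well means, and the H3f3b call was lost without library 2, with DESeq2 or with wells of 500 to 2000 transcripts. With spike-in scaling H3f3a turned to -0.66 and H3f3b was at -2.51. Histone variants H2afz and H2afj were not called, at 0.38 and 0.70.

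The 250 bases before the start of each gene, on the minus strand in both cases, are shown because the same protein is made from promoters of unlike composition. Capitals mark each CG dinucleotide. The sequences are from RefSeq, build GRCm38.p6, at chr1:180813606-180813855 for H3f3a and chr11:116024505-116024754 for H3f3b.
H3f3a: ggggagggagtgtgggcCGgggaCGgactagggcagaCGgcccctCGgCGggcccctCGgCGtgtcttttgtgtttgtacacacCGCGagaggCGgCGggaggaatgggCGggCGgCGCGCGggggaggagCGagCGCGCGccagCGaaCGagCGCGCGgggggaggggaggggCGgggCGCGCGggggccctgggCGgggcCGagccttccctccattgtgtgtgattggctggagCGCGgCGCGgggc
H3f3b: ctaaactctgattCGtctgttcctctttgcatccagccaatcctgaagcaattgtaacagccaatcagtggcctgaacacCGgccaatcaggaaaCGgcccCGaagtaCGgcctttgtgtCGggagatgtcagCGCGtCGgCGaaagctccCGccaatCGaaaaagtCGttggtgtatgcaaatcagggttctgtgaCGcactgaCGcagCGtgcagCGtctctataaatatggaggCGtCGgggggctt
The H3f3a window holds 35 CG dinucleotides at 77.2% G and C, and the H3f3b window 19 at 54%, against medians of 6 and 52.4% over the 32851 promoters of the table. As many CG or fewer were found in 97.4% and 82.1% of promoters. This is a description of the windows, not of a site or a cause.

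High mobility group proteins bend DNA or bind nucleosomes. Hmgb2 had 8.98, 9.88, 15.2 and 13.5 transcripts per 10000 in BEneg libraries 1 to 4, against 1.61, 0.913, 4.404 and 5.25 in TEneg libraries 1 to 4, without overlap (log2 fold change 2.53, SE 0.39, edgeR adjusted p = 4.77e-06). Its paralog Hmgb1 had 6.12, 7.51, 16.9 and 6.29 transcripts per 10000 in BEneg libraries 1 to 4, against 7.26, 6.39, 5.504 and 11.7 in TEneg libraries 1 to 4, with overlap (log2 fold change 0.37, SE 0.31, edgeR adjusted p = 0.374). BEneg library 3 stood apart from the other BEneg libraries in Hmgb1. Hmgn1 had 2.04, 1.98, 1.69 and 1.796 transcripts per 10000 in BEneg libraries 1 to 4, against 5.92, 5.39, 3.85 and 6.42 in TEneg libraries 1 to 4, all below TEneg (log2 fold change -1.29, SE 0.41, edgeR adjusted p = 0.0112), and the Hmgn1 call was lost without library 2, with wells of at least 1000 transcripts or without the filter on low counts. Hmgn2 was not called at 0.47. With spike-in scaling Hmgb2 was at 0.85 and not called. The acidic nuclear proteins Ptma and nucleolin (Ncl) were not called, at -0.12 and -0.04. Malat1, an abundant nuclear noncoding RNA, had 8.98, 5.53, 5.91 and 8.08 transcripts per 10000 in BEneg libraries 1 to 4, against 22.6, 16.3, 19.8 and 11.1 in TEneg libraries 1 to 4, all below TEneg (log2 fold change -1.11, SE 0.26, edgeR adjusted p = 0.000791), and the Malat1 call was lost with wells of 500 to 2000 transcripts. The other 10 tested genes of splicing and RNA binding were not called.

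A ratio of 2 related genes within a library does not depend on the scaling between libraries. For 11 pairs, chosen with their values known, log2 ratios were taken with 0.5 added to each count. The ratio of Rac2 to Rac1 was on average 1.30 in BEneg and -3.94 in TEneg (difference 5.24 ± 1.17, SD, n = 4). For Actb to Actg1 it was on average 1.32 in BEneg and 0.01 in TEneg (difference 1.31 ± 0.44, SD, n = 4), for Actb to Acta2 on average 6.50 in BEneg and 1.43 in TEneg (difference 5.07 ± 1.39, SD, n = 4), and for Msn to Ezr on average 2.16 in BEneg and -0.13 in TEneg (difference 2.30 ± 1.22, SD, n = 4). For Marcks to Marcksl1 it was on average 2.03 in BEneg and -0.53 in TEneg (difference 2.56 ± 0.63, SD, n = 4), for Hmgb2 to Hmgb1 on average 0.46 in BEneg and -1.56 in TEneg (difference 2.02 ± 1.30, SD, n = 4), and for H3f3a to H3f3b on average 1.15 in BEneg and -0.60 in TEneg (difference 1.75 ± 0.66, SD, n = 4). Myl12b to Myl12a and Prdx5 to Prdx2 differed by 2.14 ± 0.82 and 3.29 ± 0.26. Mdh1 was at 0 in BEneg libraries 1 and 4, so the size of the Mdh2 to Mdh1 ratio there is set by the 0.5 added and no mean is given. In libraries 2 and 3 this ratio was 0 and 1.14 in BEneg, against -0.29 and -0.18 in TEneg. Acta2 had 1 to 3 transcripts in each BEneg library and Rac2 1 or 2 in each TEneg library, so the size of their ratios also leans on the 0.5. All of these 10 ratios were higher in BEneg in 4 of 4 libraries. The ratio of Cfl1 to Dstn was higher in 3 of 4, by 1.27 ± 1.41. With 4 paired libraries an exact two-sided sign-flip permutation test cannot go below p = 0.125, which each of the 10 pairs reached (adjusted p = 0.138 over the 11 pairs), so none could pass the threshold.

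**Figure D5:**
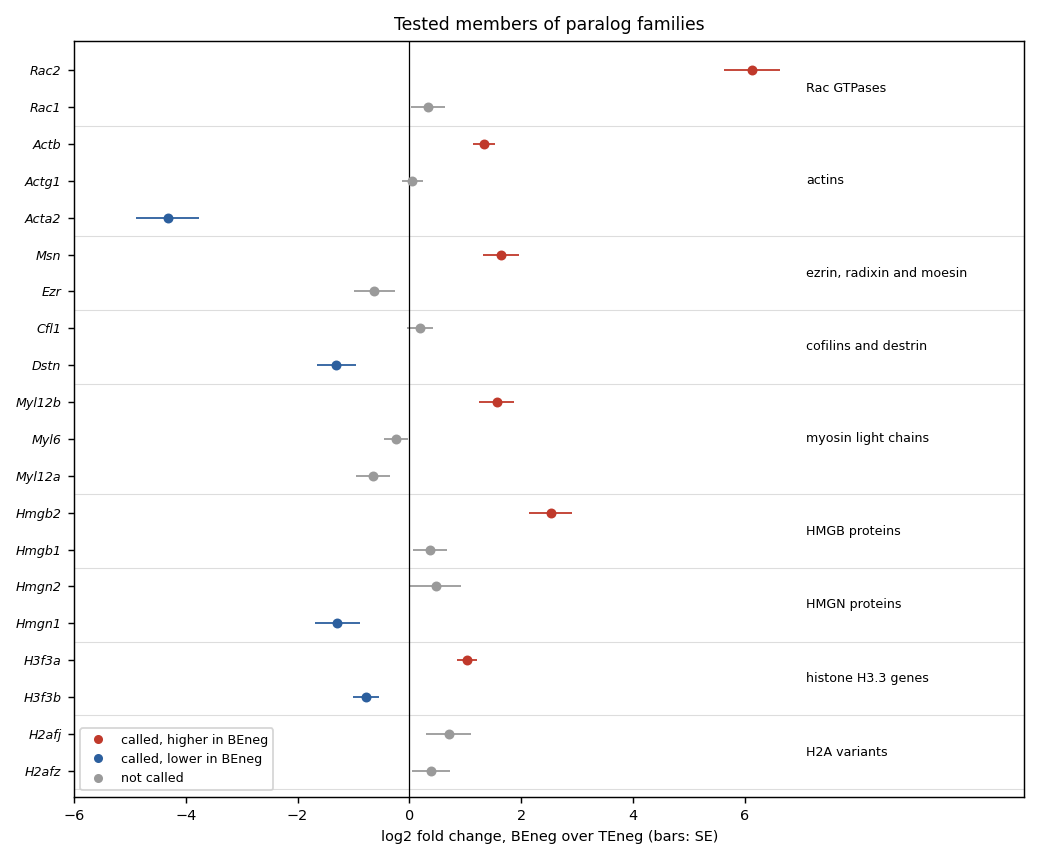
Log2 fold change of BEneg over TEneg (x axis, bars are SE) for tested members of paralog families with at least 2 tested members, with called genes in red (higher in BEneg) or blue (lower) and others in grey. H3f3a and H3f3b stand on opposite sides of 0, and in the Rac, HMGB and moesin families 1 paralog is called and the other is not.

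Of 16 tested immediate early genes, which answer to stimulation within minutes, 4 rose, 1 fell and 11 were not called, among them Fos, Jun and Fosb. With 23.9% of all tested genes higher and 17.1% lower, these counts are near the background for higher and below it for lower. Jun, at -0.92, was called lower without library 2 (-1.35), without the large TEneg cell, with scaling to total transcripts and with limma on well means. Egr1, a zinc finger factor, had 0.816, 1.19, 0.845 and 0.898 transcripts per 10000 in BEneg libraries 1 to 4, against 6.995, 3.56, 7.16 and 10.5 in TEneg libraries 1 to 4, all below TEneg (log2 fold change -2.48, SE 0.47, edgeR adjusted p = 8.19e-05). Dusp1, a phosphatase of MAP kinases, had 6.12, 9.48, 4.22 and 9.88 transcripts per 10000 in BEneg libraries 1 to 4, against 2.42, 0.548, 4.404 and 1.17 in TEneg libraries 1 to 4. BEneg was higher in 3 of 4 libraries and slightly lower in library 3 (log2 fold change 2.39, SE 0.49, edgeR adjusted p = 0.000226). Btg1, which slows growth, had 14.7, 16.99, 5.91 and 21.6 transcripts per 10000 in BEneg libraries 1 to 4, against 6.995, 6.12, 7.71 and 5.25 in TEneg libraries 1 to 4, again lower in BEneg in library 3 alone of the 4 libraries (log2 fold change 1.36, SE 0.30, edgeR adjusted p = 0.000427). Zfp36l2 and Junb were called at 1.21 and 1.005, each in 3 of 4 libraries. The Btg1 call was lost with wells of at least 1000 transcripts, the Zfp36l2 call was lost without library 1, 3 or 4, without the filter on low counts or with scaling to total transcripts and the Junb call was lost without library 2 or 4, when BEneg and TEneg alone were fitted, with DESeq2, with wells of at least 1000 transcripts, with limma on well means, without the filter on low counts, without the library block, with scaling to total transcripts or without the large TEneg cell. With spike-in scaling Btg1, Zfp36l2 and Junb turned to -0.36, -0.47 and -0.70, and Dusp1 was at 0.70 and not called.

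Transcription factors of lineage were rare. Cebpb, a factor of myeloid cells and of mammary epithelium, had 10.6, 14.2, 8.45 and 14.4 transcripts per 10000 in BEneg libraries 1 to 4, against 4.305, 7.21, 3.85 and 7.003 in TEneg libraries 1 to 4, without overlap (log2 fold change 1.28, SE 0.27, edgeR adjusted p = 0.000333), and turned to -0.42 with spike-in scaling. Gata3, which holds luminal identity, had 0, 1.58, 0.845 and 0.898 transcripts per 10000 in BEneg libraries 1 to 4, against 3.23, 4.02, 1.65 and 2.92 in TEneg libraries 1 to 4, all below TEneg (log2 fold change -1.73, SE 0.64, edgeR adjusted p = 0.0293), but the Gata3 call was lost without library 1 or 4, with DESeq2 or without the filter on low counts. Among untested factors of epithelial and stem cells, Id3 had 0 in BEneg and 46 in TEneg, Hes1 had 3 in BEneg and 47 in TEneg and Ehf had 5 in BEneg and 53 in TEneg. Nfe2, of megakaryocytes and granulocytes, had 21 in BEneg and 0 in TEneg.

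In protein synthesis the cytosolic ribosomal proteins were called in 9 of 71 tested genes, 4 higher and 5 lower, and none of 10 tested translation factors was called. The ribosomal median log2 fold change was -0.07. These counts depend on the processing. Of the ribosomal proteins 60 of 71 were lower with limma on well means, 70 of 71 with spike-in scaling, 18 of 71 with scaling to total transcripts and 26 of 69 when BEneg and TEneg alone were fitted, and without library 2 none was. With DESeq2 or with wells of at least 1000 transcripts 1 of 71 was lower. With barcodes in place of estimated transcripts or without the library block 2 of 71 were lower. Higher were 1 of 71 with limma and 2 of 71 with scaling to total transcripts. Of the translation factors 8 of 10 were lower with limma, 10 of 10 with spike-in scaling and 4 of 6 when BEneg and TEneg alone were fitted. Of all 490 tested genes 218 were lower with limma, 371 with spike-in scaling and 111 with scaling to total transcripts. The fit of BEneg and TEneg alone called 81 genes lower in all. Ribosomal proteins took 10.6% to 19.3% of BEneg transcripts and 11.8% to 19.9% of TEneg transcripts and translation factors 1.72% to 2.28% of BEneg transcripts and 2.38% to 2.53% of TEneg transcripts, both a lower share in BEneg in 4 of 4 libraries. Fau, a ribosomal protein made as a fusion with a ubiquitin-like protein, had 11.8, 11.5, 11.8 and 12.6 transcripts per 10000 in BEneg libraries 1 to 4, against 5.11, 5.48, 3.303 and 2.92 in TEneg libraries 1 to 4, without overlap (log2 fold change 1.57, SE 0.28, edgeR adjusted p = 3.85e-05). It turned to -0.06 with spike-in scaling. Rps9, Rpl27a and Rps16 were higher by 0.79, 0.60 and 0.43, and Rpl38, Rpl36, Rpl3 and Rpl7a were lower, from -0.89 to -0.49. With spike-in scaling Rps9, Rpl27a and Rps16 turned to -0.84, -1.01 and -1.18. When libraries were left out, the call of Rpl36 was lost without library 2, that of Rps16 without library 2 or 3, that of Rpl7a without library 2 or 4, that of Rpl3 without library 1, 2 or 4 and that of Rpl38 without library 2, 3 or 4. Losses under the other settings are given here only as the counts above. Pseudogenes of ribosomal proteins can share reads, so single members are uncertain.

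Chaperones were lower in BEneg. Of 6 tested heat shock genes 4 fell and 2 were not called. Hsp90ab1, the constitutive cytosolic HSP90, had 3.67, 11.5, 21.1 and 6.29 transcripts per 10000 in BEneg libraries 1 to 4, against 25.3, 29.5, 32.5 and 20.4 in TEneg libraries 1 to 4. BEneg was lower in every library, with library 3 highest within BEneg (log2 fold change -1.30, SE 0.24, edgeR adjusted p = 5.61e-05). Hspb1, a small heat shock protein, had 1.63, 1.58, 2.53 and 0.898 transcripts per 10000 in BEneg libraries 1 to 4, against 11.8, 7.67, 2.75 and 2.92 in TEneg libraries 1 to 4, without overlap (log2 fold change -1.86, SE 0.44, edgeR adjusted p = 0.001105). Hsp90aa1 and Hspa1b, induced by stress, were lower at -1.17 and -3.07. The Hsp90aa1 call was lost without library 1, 2 or 4 or with wells of at least 1000 transcripts, and the Hspa1b call was lost without library 1. The share of the list was 0.3102% to 0.828% of BEneg transcripts and 0.9603% to 1.03% of TEneg transcripts.

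In the endoplasmic reticulum list 5 of 13 tested genes fell, 1 rose and 7 were not called. Calr, calreticulin, a calcium-binding chaperone, had 3.67, 1.58, 4.22 and 4.49 transcripts per 10000 in BEneg libraries 1 to 4, against 7.26, 9.77, 10.5 and 13.4 in TEneg libraries 1 to 4, all below TEneg (log2 fold change -1.41, SE 0.32, edgeR adjusted p = 0.000755). Dad1 of the oligosaccharyltransferase, the folding factors Hsp90b1 and P4hb, and Pdia6 were lower, from -1.69 to -1.25. The Dad1 call was lost without library 1 or with DESeq2, the Hsp90b1 call was lost without library 4, the P4hb call was lost without library 2 and the Pdia6 call was lost without library 1, 2 or 3, with DESeq2, with wells of at least 1000 transcripts, without the filter on low counts, without the library block or without the large TEneg cell. Sec61b, of the channel into the reticulum, was higher at 1.31 in 3 of 4 libraries and turned to -0.41 with spike-in scaling. The Sec61b call was lost without library 1, with limma on well means or without the filter on low counts. With wells of at least 1000 transcripts no gene of the list was called higher. The 22 untested members had 146 transcripts in BEneg and 651 in TEneg. In the fit without the filter on low counts the list's median log2 fold change was -0.62, against -0.71 for all genes.

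Degradation split as well. Of 13 tested lysosomal and cathepsin-related genes 7 rose and 6 were not called. Ctsc, the protease that activates granule serine proteases, had 6.12, 8.295, 8.45 and 4.49 transcripts per 10000 in BEneg libraries 1 to 4, against 0.807, 1.64, 2.75 and 1.17 in TEneg libraries 1 to 4, without overlap (log2 fold change 2.40, SE 0.46, edgeR adjusted p = 8.9e-05). It was at 0.67 and not called with spike-in scaling. Cst3, a cystatin, and Npc2, a cholesterol carrier of lysosomes, rose by 1.71 and 1.59. With spike-in scaling Cst3 was at 0.06 and not called, and Npc2 turned to -0.03. Lamp1 and Ctsb, a membrane protein and a protease of lysosomes in most cells, were not called at 0.66 and 0.44, though Lamp1 was called higher without library 2, at 1.22. The remaining called members Lyz1, Lyz2, Laptm5 and Stfa2l1 are products of blood cells. Lyz1 and Lyz2 share reads and are uncertain as single genes. Nedd4, a ubiquitin ligase, had 0.816, 1.58, 0 and 0.898 transcripts per 10000 in BEneg libraries 1 to 4, against 14.8, 10.6, 9.36 and 15.2 in TEneg libraries 1 to 4, all below TEneg (log2 fold change -3.45, SE 0.42, edgeR adjusted p = 1.43e-07). Of the other 7 tested genes of ubiquitin and proteasome, 6 were not called and Ube2d3 was higher at 0.996, with -0.68 under spike-in scaling. The Ube2d3 call was lost without library 1, with limma on well means or without the filter on low counts. With wells of at least 1000 transcripts, or when BEneg and TEneg alone were fitted, no gene of this list was called higher. The 73 untested members had 515 transcripts in BEneg and 1817 in TEneg, lower in BEneg as a share in 4 of 4 libraries. Untested genes as a whole also had a lower share in BEneg. In the fit without the filter on low counts the list median was -0.47, against -0.71 for all genes. Wfdc17, a secreted protein with a protease inhibitor fold, had 34.3, 32, 13.5 and 42.2 transcripts per 10000 in BEneg libraries 1 to 4, against 1.35, 0.456, 3.303 and 0.584 in TEneg libraries 1 to 4, without overlap (log2 fold change 4.99, SE 0.44, edgeR adjusted p = 3.5e-10).

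Matrix genes fell in 8 of 11 tested members, rose in 2 and were not called in 1. Igfbp5, which binds insulin-like growth factors, had 5.71, 18.96, 5.91 and 17.96 transcripts per 10000 in BEneg libraries 1 to 4, against 55.4, 66.8, 54.5 and 117 in TEneg libraries 1 to 4, all below TEneg (log2 fold change -2.35, SE 0.24, edgeR adjusted p = 6.19e-09). Col4a1, Col4a2, Sparcl1, Igfbp3 and Sparc, of basement membrane and matrix, had log2 fold changes of -4.41, -4.16, -3.87, -3.49 and -3.21. Mmp9, a gelatinase stored in neutrophil granules, and Tgfbi, a matrix protein also made by monocytes, rose by 6.52 and 3.86. Cldn3, a tight junction protein, had 0.408, 1.19, 0 and 0.898 transcripts per 10000 in BEneg libraries 1 to 4, against 3.77, 6.39, 3.85 and 4.67 in TEneg libraries 1 to 4, all below TEneg (log2 fold change -2.58, SE 0.54, edgeR adjusted p = 0.000272). Epcam, an epithelial adhesion protein, was lower at -1.83, while Cd24a and Cdh1 were not called. Of 7 tested milk and luminal secretory genes 6 fell, from -2.34 for Wfdc18 to -1.19 for Lcn2.

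Immune genes rose outside the 3 themes above. All 13 tested leukocyte genes rose, from 1.97 to 6.13, and 12 of them stayed called with spike-in scaling. Ccr2, the receptor that draws monocytes from blood, had 11.02, 5.53, 5.07 and 10.8 transcripts per 10000 in BEneg libraries 1 to 4, against 0, 0, 0 and 0 in TEneg libraries 1 to 4, at least 49.2-fold higher in BEneg against a floor of 3 counts over the group (edgeR adjusted p = 1.15e-06). It was not called with DESeq2. Lilrb4, an inhibitory receptor, had 6.94, 7.11, 6.76 and 16.2 transcripts per 10000 in BEneg libraries 1 to 4, against 0.538, 0, 0.5504 and 0 in TEneg libraries 1 to 4, without overlap (log2 fold change 5.46, SE 0.72, edgeR adjusted p = 4.89e-07). Slfn4, the highest of 3 tested interferon-induced genes, all of which rose, was at 6.49 (SE 0.86). Of 9 tested S100 proteins and annexins 7 rose and 2 were not called. S100a8, a subunit of the calprotectin of neutrophils and monocytes, had 434, 424, 185 and 243 transcripts per 10000 in BEneg libraries 1 to 4, against 11.6, 4.56, 9.91 and 11.7 in TEneg libraries 1 to 4, without overlap (log2 fold change 5.46, SE 0.34, edgeR adjusted p = 2.98e-13). S100a9, its partner, had 425, 467, 193 and 315 transcripts per 10000 in BEneg libraries 1 to 4, against 14.5, 3.47, 8.26 and 26.8 in TEneg libraries 1 to 4, also without overlap (log2 fold change 5.28, SE 0.40, edgeR adjusted p = 2.34e-11). Both are members of the neutrophil list. Anxa1, a phospholipid-binding protein that limits inflammation, had 16.3, 13.8, 10.98 and 26.05 transcripts per 10000 in BEneg libraries 1 to 4, against 3.498, 1.095, 1.65 and 2.92 in TEneg libraries 1 to 4, without overlap (log2 fold change 3.18, SE 0.33, edgeR adjusted p = 7.02e-09). Mcl1, a survival factor that neutrophils depend on, had 15.5, 16.99, 7.603 and 26.9 transcripts per 10000 in BEneg libraries 1 to 4, against 2.42, 2.37, 4.95 and 1.75 in TEneg libraries 1 to 4, without overlap (log2 fold change 2.76, SE 0.34, edgeR adjusted p = 1.79e-07).

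The 50 called genes in no list included several without a described place in the themes above, and these were chosen after their values were seen. Sfpi1, the myeloid and lymphoid factor PU.1, had 6.94, 5.93, 5.91 and 11.7 transcripts per 10000 in BEneg libraries 1 to 4, against 0.538, 0.0913, 0.5504 and 0.584 in TEneg libraries 1 to 4, without overlap (log2 fold change 4.57, SE 0.67, edgeR adjusted p = 2.45e-06). Grina, a membrane protein of the glutamate receptor-associated family, had 18.4, 27.7, 12.7 and 20.7 transcripts per 10000 in BEneg libraries 1 to 4, against 2.42, 2.83, 2.202 and 2.92 in TEneg libraries 1 to 4, without overlap (log2 fold change 3.17, SE 0.29, edgeR adjusted p = 8.45e-10). Cd81, a tetraspanin, had 0.816, 3.56, 0.845 and 2.69 transcripts per 10000 in BEneg libraries 1 to 4, against 4.84, 13.7, 9.91 and 9.92 in TEneg libraries 1 to 4, all below TEneg (log2 fold change -2.02, SE 0.40, edgeR adjusted p = 0.000153). Pmepa1, a target and inhibitor of TGF-beta signalling, had 0.816, 1.98, 1.69 and 1.796 transcripts per 10000 in BEneg libraries 1 to 4, against 12.9, 10.3, 7.16 and 12.8 in TEneg libraries 1 to 4, all below TEneg (log2 fold change -2.62, SE 0.40, edgeR adjusted p = 4.19e-06). In metabolism Gda, a guanine deaminase, rose by 4.17, and the mitochondrial carrier Ucp2 and the purine enzyme Pnp were higher at 1.07 and 1.16 and turned to -0.63 and -0.51 with spike-in scaling. The Ucp2 call was lost without library 1 or 2, when BEneg and TEneg alone were fitted, with DESeq2, with wells of at least 1000 transcripts, with limma on well means, without the filter on low counts or with scaling to total transcripts. In the cytoskeleton Bin2, a membrane-bending protein of blood cells, rose by 5.53, and the LIM proteins Crip1 and Crip2 moved apart, at 1.48 and -2.45, with Crip1 at -0.17 under spike-in scaling. In the nucleus the factors Trps1, Irx2 and Tob1 were lower at -1.61, -1.55 and -1.80, and the noncoding RNA Kcnq1ot1 at -0.80. The folding genes Ppia and Cct4 were lower at -1.10 and -1.27, and Rn45s, a ribosomal RNA precursor, at -0.94. Of the genes in the last sentences, the calls of Trps1, Crip1, Tob1, Irx2 and Kcnq1ot1 were lost without library 1, those of Irx2, Kcnq1ot1 and Rn45s without library 2, those of Irx2 and Cct4 without library 3 and those of Irx2, Tob1, Pnp and Cct4 without library 4.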

How the data were processed

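Per the labels' protocols, single cells were sorted into Trizol and profiled by CEL-seq, which reads the 3' ends of barcoded transcripts. The deposited values are estimated counts, for every gene in every well, without normalization, each equal to 256 times the natural logarithm of 256/(256 − k) for k barcodes seen. The submitters' processing notes name BWA 0.6.2-r126 and mm10. How reads were counted is not stated in the labels. Columns of 24 wells with another sort were not used.

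Transcripts of wells with at least 500 were summed per library, without spike-ins, and rounded. BEneg, TEneg and TEpos sums were fitted with edgeR 4.0.16 under R 4.3.3, with library as a block, TMM scaling and the quasi-likelihood test, in a script tested on simulated data. The filter filterByExpr kept 490 genes. P-values were adjusted by Benjamini-Hochberg over all 490. Values per 10000 are shares of the library sum, and those of sums from 11172 transcripts upward carry counting error. The pairing comes from the barcode table, which gives each library wells of every population, and residuals of paired BEneg and TEneg sums correlated at 0.0657 to 0.274. The labels do not tie libraries to animals, so a p-value covers the spread among 4 libraries and that spread may be technical.

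Gene lists, families and members were chosen with earlier results of these data known. Within the lists described, named genes were drawn from the called members with the largest changes in each direction, the most abundant tested members that were not called and the untested members with the most transcripts, from 20 upward, besides members of paralog families and genes said to be chosen after their values were seen. Actr2, Cdc42, Ctsc, Fosb, Igfbp5, Jun, Lamp1, Myh9, Npc2, Pdia6, Prdx6 and Rpl7a were also chosen after their values were seen. Alternatives were DESeq2 1.42.0, limma 3.58.1 on the mean of wells, other scalings, filters and well minimums, the fit without the block, and each library left out. Some members of the lists are counted but not reported here by name.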

Additional observations from a re-analysis of the deposited data

Results flagged for a closer look

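Among the genes whose values per library are given, 156 groups of 4 libraries were examined for a library far from the others, and 9 held one, where chance alone gives about 1 in 20. In BEneg, library 3 was low in Coro1a, at 5.07 transcripts per 10000 against 13.43 to 13.47 in the other BEneg libraries, and low in Msn, at 8.45 against 15.0 to 15.3. It was high in Hmgb1, at 16.9 against 6.12 to 7.51. Library 4 was low in Txn1, at 11.7 against 16.1 to 16.7, and high in Lilrb4, at 16.2 against 6.76 to 7.11. In TEneg, library 3 was high in Msn, at 7.71 against 4.29 to 4.84, and library 1 was high in Tagln2, at 4.30 against 2.20 to 2.37. Library 2 was low in Rac2 and in Sfpi1, at 0.0913 in both against 0.538 to 0.584, which in library 2 is 1 transcript each. Coro1a, Msn, Tagln2, Rac2, Sfpi1 and Lilrb4 were called with each library left out in turn.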

How the results depend on the processing

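The 201 calls, 117 higher and 84 lower, moved with the processing. Wells of at least 1000 transcripts gave 111 calls, 53 of them higher, and wells of 500 to 2000 transcripts gave 90, with 57 higher and 33 lower. Limma on well means gave 315 calls, 218 of them lower. Without the filter on low counts there were 461, 269 higher and 192 lower. Spike-in scaling, chosen after seeing the data, gave 422, 51 higher and 371 lower. DESeq2 gave 173 calls, scaling to total transcripts 219, BEneg and TEneg alone 168, barcodes in place of estimated transcripts 199, and the sums without the large TEneg cell 193. Without the block that pairs populations by library there were 187, 113 higher and 74 lower. Leaving out each library gave 168 to 223 calls, 108 to 140 of them higher and 58 to 83 lower. Of the 201 calls, 120 were kept under every alternative in which the gene was tested, spike-in scaling left out.

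With spike-in scaling, which lowers every gene by nearly the same amount, 40 named genes called higher with TMM turned to a negative log2 fold change. They are counted by sign, whether or not they were called there. Actb and Actr2, for example, were not (edgeR adjusted p = 0.3111 and 0.2165). The log2 fold changes became Actb -0.31, Actr2 -0.53, Arpc1b -0.16, Arpc2 -0.13, Arpc3 -0.51, Arpc5 -0.21, Atp5l -0.87, Atp6v1g1 -0.25, B2m -0.61, Btg1 -0.36, Cebpb -0.42, Clic1 -0.43, Crip1 -0.17, Fau -0.0575, Ftl1 -0.11, Gnai2 -0.43, H2-D1 -0.37, H3f3a -0.66, Ifitm3 -0.42, Iqgap1 -0.40, Junb -0.70, Lrg1 -0.34, Marcks -0.45, Msn -0.0628, Myl12b -0.13, Npc2 -0.0296, Pfn1 -0.35, Pnp -0.51, Rap1b -0.16, Rpl27a -1.01, Rps16 -1.18, Rps9 -0.84, Sec61b -0.41, Slpi -0.0696, Sub1 -0.64, Txn1 -0.85, Ube2d3 -0.68, Ucp2 -0.63, Vim -0.32 and Zfp36l2 -0.47. Another 30 named genes, above 0 and not called with TMM, were called lower with spike-in scaling, at Actg1 -1.63, Atf4 -1.40, Cd24a -1.23, Cd9 -1.19, Cdc42 -1.23, Cebpd -1.04, Cfl1 -1.50, Ctsb -1.22, Ddx5 -1.63, Eef1a1 -1.56, Flna -1.51, Fos -1.42, Gapdh -1.51, H2-K1 -1.69, H2afz -1.28, Hmgb1 -1.30, Hmgn2 -1.23, Hspe1 -1.17, Mgst1 -1.07, Myh9 -1.58, Pabpc1 -1.61, Prdx1 -1.59, Rac1 -1.36, Rhoa -1.36, Rpl41 -1.58, Rps12 -1.31, S100a10 -1.10, Tmed2 -1.06, Tpi1 -1.15 and Zfp36l1 -1.61. With limma on well means Rps16 turned to -0.18, and Eef1a1, H2-K1, Pabpc1 and Prdx1, not called with TMM, were called lower at -1.59, -0.99, -1.15 and -0.71. No other named gene that was called, there or with TMM, changed direction under any alternative run. Calls were gained in the same direction too, by 32 named genes with spike-in scaling and by 22 with limma. BEneg and TEneg alone and scaling to total transcripts gained 7 each. Leaving out library 2, library 3 or the large TEneg cell gained 4 each. Wells of at least 1000 transcripts gained 3, and the fit without the filter on low counts 1. Sums of 11172 to 25379 transcripts limit BEneg, so that genes with few transcripts, the 40 chromatin modifiers among them, did not pass the filter.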
